A study of Mus musculus with 6 samples.

Results

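The genes described here are 9 chemotactic receptors, listed with the positioning of type-2 conventional dendritic cells (cDC2s) in mind. They were chosen by name from a count table of 14788 gene symbols: Ccr1, Ccr2, Ccr3, Ccr6, Ccr7, Cxcr4, Cx3cr1, Gpr183 and S1pr1. All 9 were in the table and 8 passed the filter on low counts that left 11504 genes for testing. Ccr1 was below that filter and has levels but no test. RNA was sequenced from splenic cDC2s of C57BL/6 mice, with 3 libraries from wild-type (WT) cells and 3 from Arhgef1-/- cells, called the knockout below. The Arhgef1 protein switches on RhoA, a small GTPase that controls the actin cytoskeleton, when receptors activate the G proteins of the G12/G13 class. Not given in the sources used here are the age of the mice, the way the cells were sorted, the part of Arhgef1 that was deleted and whether it was deleted in all cells. Since nothing says that replicates came from separate animals, p-values measure the spread between these libraries, which may be technical.

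Chemotactic receptors are 7-transmembrane receptors that signal mainly through Gi proteins and steer cells along gradients of chemokines or lipids. Gpr183 (EBI2) binds the oxysterol 7α,25-dihydroxycholesterol and places splenic cDC2s in the bridging channels of the spleen. Ccr7 binds Ccl19 and Ccl21 and brings maturing dendritic cells into T cell zones, Cxcr4 binds Cxcl12, and S1pr1 binds sphingosine-1-phosphate and promotes exit into blood or lymph. Ccr6 binds Ccl20, Cx3cr1 binds fractalkine (Cx3cl1), Ccr2 binds Ccl2 and marks monocytes released from bone marrow, Ccr3 binds eotaxins and is best known on eosinophils, and Ccr1 binds several inflammatory chemokines.

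Of the 8 receptors tested, Cxcr4 rose in the knockout, Ccr3 fell, and the other 6 did not pass the test (edgeR quasi-likelihood test, Benjamini-Hochberg adjusted p under 0.05 over all genes tested). None of these 6 had an unadjusted p under 0.05 in edgeR, and DESeq2 and limma-voom called 0 of them. The same rule called 5.09% of the 11504 genes higher and 4.58% lower, 9.67% in all. The promoters of these 2 genes are shown first, because they are the receptors whose transcript changed. Each runs from 250 bases before to 50 bases after the transcript start in RefSeq on GRCm38.p6, 5′ to 3′ on the gene's strand, and capitals mark motif matches found on either strand.
Ccr3 promoter, chr9:124021721-124022020, plus strand: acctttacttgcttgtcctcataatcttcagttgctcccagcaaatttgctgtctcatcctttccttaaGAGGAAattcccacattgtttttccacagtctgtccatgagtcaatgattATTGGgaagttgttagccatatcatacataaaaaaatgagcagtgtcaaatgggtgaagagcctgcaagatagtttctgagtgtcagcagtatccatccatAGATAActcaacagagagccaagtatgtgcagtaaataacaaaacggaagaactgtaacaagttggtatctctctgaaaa
Cxcr4 promoter, chr1:128592250-128592549, minus strand: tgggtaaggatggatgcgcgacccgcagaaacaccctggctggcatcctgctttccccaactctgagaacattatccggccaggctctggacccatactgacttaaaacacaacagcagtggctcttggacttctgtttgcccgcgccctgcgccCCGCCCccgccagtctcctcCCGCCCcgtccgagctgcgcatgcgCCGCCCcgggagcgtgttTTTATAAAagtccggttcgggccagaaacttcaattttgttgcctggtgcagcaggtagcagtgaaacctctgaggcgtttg
The Ccr3 window was poor in G and C, with 39.0% GC and 1 CpG, and 8.92% of all promoters of the same length had an equal or lower GC content. A match to GAGGAA, the core bound by factors of the PU.1 type, began at position -181 from the start. A CCAAT box on the opposite strand began at -131, and a GATA motif, searched as AGATAA, began at -30. The Cxcr4 window had 59.3% GC and 20 CpGs, against medians of 52.7% and 7 over 32851 promoters. It held 3 GC boxes, GGGCGG read on the opposite strand, at -95, -75 and -50, and TATAAA at -30, which overlaps a match of the same motif on the other strand at -32. Counting both strands, GAGGAA was in 28.3% of all promoters, AGATAA in 11.2%, CCAAT in 37.4%, GGGCGG in 35.7% and TATAAA in 13.6%. The cyclic AMP response element TGACGTCA, in 1.79% of promoters, was also searched and was in neither window. Other receptors with a promoter entry carried some of these motifs. GAGGAA was also in Ccr1 and a Ccr6 window, AGATAA in Ccr2 and another Ccr6 window, and CCAAT in Cx3cr1. GGGCGG and TATAAA were not found in the other receptors' windows. A match describes the letters in the window and is not a measured binding site.

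A second set of sequences bears on how well reads of these receptors can be told apart. The Ccr1, Ccr3 and Ccr2 genes lie close together on chromosome 9. The stretch below is the longest identical run (in capitals) between coding sequences of these 3 genes, with 10 flanking bases on each side, from GENCODE vM21 transcripts on mm10.
Ccr1, coding positions 835 to 881: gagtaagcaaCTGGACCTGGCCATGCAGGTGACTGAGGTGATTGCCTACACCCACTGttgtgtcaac
Ccr3, coding positions 847 to 893: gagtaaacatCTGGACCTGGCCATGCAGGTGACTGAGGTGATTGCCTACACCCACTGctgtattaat
Ccr1 and Ccr3 share 47 bases without a mismatch, in coding sequences that are 68.1% identical. Of all 50-base windows of the Ccr2 transcripts, 129 of 6758 (1.91%) also occur in another gene. For Ccr3, Ccr1, Ccr6, Ccr7, Cxcr4, Gpr183 and S1pr1 no 50-base window occurs in another gene. The window length was a choice, and reads of 47 bases or fewer could lie wholly within the run shared by Ccr1 and Ccr3. Cx3cr1 shares 47 of 4453 windows (1.06%) and 78 exonic bases with genes that include the antisense transcript Gm33858. Without a stated strand setting, reads within the 78 shared exonic bases, 1.7% of the Cx3cr1 exon length, cannot be told apart.

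Total counts per library ran from 8408325 to 11714365. All WT libraries came from lane 1 of one run name and all knockout libraries from lane 2 of another, so lane, run name and genotype cannot be told apart. Levels are given as CPM, the count scaled to a common library size. Arhgef1 itself fell from 284 ± 35.6 to 129 ± 14.8 CPM (SD, n = 3 each), by 1.13 ± 0.11 on the log2 scale (SE; edgeR adjusted p = 6.96e-06), with no overlap between genotypes. The dendritic cell genes Itgax, Zbtb46, Flt3 and Irf4 were present in every library, while 5 of 11 tested cDC2 and dendritic cell identity genes fell (Cd209a, Cd4, H2-Ab1, Sirpa and Clec4a4), the last 2 with calls lost as single libraries were left out. Of 16 macrophage markers 14 fell, and their median log2 fold change was -1.81. They summed to 805 to 1257 CPM in WT libraries and 290 to 461 CPM in knockout libraries. In bulk samples, fewer cells of a type and less RNA per cell cannot be told apart.

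Ccr3, the eotaxin receptor (ENSMUSG00000035448.9, mm10 chr9:124021972-124031689, plus strand, protein coding), showed the larger of the 2 changes. Its level was 26.2, 16.5 and 17.8 CPM in WT replicates 1, 2 and 3, and 5.35, 1.55 and 1.53 CPM in knockout replicates 1, 2 and 3. These values rest on 274, 143 and 151 reads in WT and on 46, 15 and 18 reads in the knockout. The knockout values were all lower than the lowest WT value, and knockout replicate 1 was the highest of its group. The mean fell from 20.2 ± 5.30 to 2.81 ± 2.20 CPM (SD, n = 3 each), to 13.9% of the WT level. The log2 fold change was -2.87 ± 0.41 (SE; 95% interval -3.73 to -2.02; edgeR adjusted p = 0.000177), which is 7.33-fold lower with an interval of 4.05-fold to 13.3-fold. Without knockout replicate 1 the log2 fold change was -3.70, and it stayed between -3.70 and -2.56 whichever library was left out. Ccr3 was called lower in all 14 alternative analyses.

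Ccr3 itself is on the list of eosinophil markers, of which 7 of 10 were in the table, 3 were tested and Ccr3 was the one called. The other 6 summed to 10.3, 5.87 and 6.72 CPM in WT and to 16.1, 9.82 and 7.25 CPM in the knockout. They did not fall with Ccr3, and knockout replicate 1 had the highest sum. Ear2, an eosinophil ribonuclease gene, was 2.88 to 5.56 CPM over the 6 libraries and Siglec5 1.11 to 6.52 CPM, levels like those of Ccr3 in the knockout. The granule protein genes Prg2 and Prg3 reached at most 1.88 and 0.192 CPM, the interleukin-5 receptor gene Il5ra 1.76 CPM and the lipoxygenase gene Alox15 3.73 CPM, in knockout replicate 1.

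Basophil and mast cell markers (5 of 9 in the table) summed to 769 to 812 CPM in WT libraries and 618 to 679 CPM in knockout libraries, nearly all of it from Kit, the stem cell factor receptor gene. Kit fell from 784 to 642 CPM, by 0.29 on the log2 scale (edgeR adjusted p = 0.0182), a call lost without WT replicate 2 or 3 or knockout replicate 2. Hdc, which makes histamine, was 7.25 to 16.2 CPM and was not called. Gata2 and Cd200r3 reached at most 0.576 and 0.207 CPM, and Cpa3 was at 0 in all 6 libraries. Summed levels of the macrophage markers moved in the same direction as Ccr3: 1257, 956 and 805 CPM in WT and 461, 290 and 305 CPM in the knockout. WT replicate 1 and knockout replicate 1 were the highest of their groups in both. No marker of the macrophage list was at 0 in all libraries, and the part of macrophages, eosinophils, basophils and mast cells in the Ccr3 result was not tested.

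Cxcr4, the receptor for Cxcl12 (ENSMUSG00000045382.6, mm10 chr1:128588199-128592293, minus strand, protein coding), was 75.5, 66.2 and 71.7 CPM in WT replicates 1, 2 and 3. It was 115, 150 and 129 CPM in knockout replicates 1, 2 and 3, from 991 to 1517 reads. The lowest knockout library was therefore well above the highest WT library. The mean rose from 71.1 ± 4.67 to 132 ± 17.4 CPM (SD, n = 3 each). The log2 fold change was 0.89 ± 0.12 (SE; 95% interval 0.63 to 1.14; edgeR adjusted p = 0.000134), which is 1.85-fold higher with an interval of 1.55-fold to 2.20-fold. It was called higher in all 14 alternative analyses and ranged from 0.78 to 0.98 as each library was left out. Markers of other cell types that carry Cxcr4 were examined beside it. Plasmacytoid dendritic cell markers (8 of 8 in the table) summed to 229 to 249 CPM in WT libraries and 284 to 327 CPM in knockout libraries, without overlap. Most of each sum came from Tcf4 and Spib. Of the 5 plasmacytoid markers tested, 1 rose: Spib, a transcription factor gene, from 62.2 to 109 CPM (log2 fold change 0.81, edgeR adjusted p = 0.000487). Not called were Tcf4 (log2 fold change 0.19), Ccr9 (0.25), Bst2 (0.16) and Siglech (-0.04). Siglech stayed at or below 4.31 CPM in every library. Ly6d, Cox6a2 and Klk1, below the filter, reached at most 1.53, 0.621 and 0.192 CPM. T cell markers (8 of 9 in the table) summed to 79.0 to 101 CPM in WT libraries and 85.5 to 159 CPM in knockout libraries. Of the 5 tested, 1 rose: Tcf7, from 55.7 to 87.2 CPM (log2 fold change 0.65; edgeR adjusted p = 0.0307), a call lost with limma-voom or without any 1 library other than knockout replicate 2. B cell markers summed to 416 to 490 CPM in WT libraries and 473 to 539 CPM in knockout libraries, with 0 of 9 called by edgeR, 0 at an unadjusted p under 0.05 and 0 by DESeq2 or limma-voom. The part of these cells in the Cxcr4 result was not tested.

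**Figure D1:**
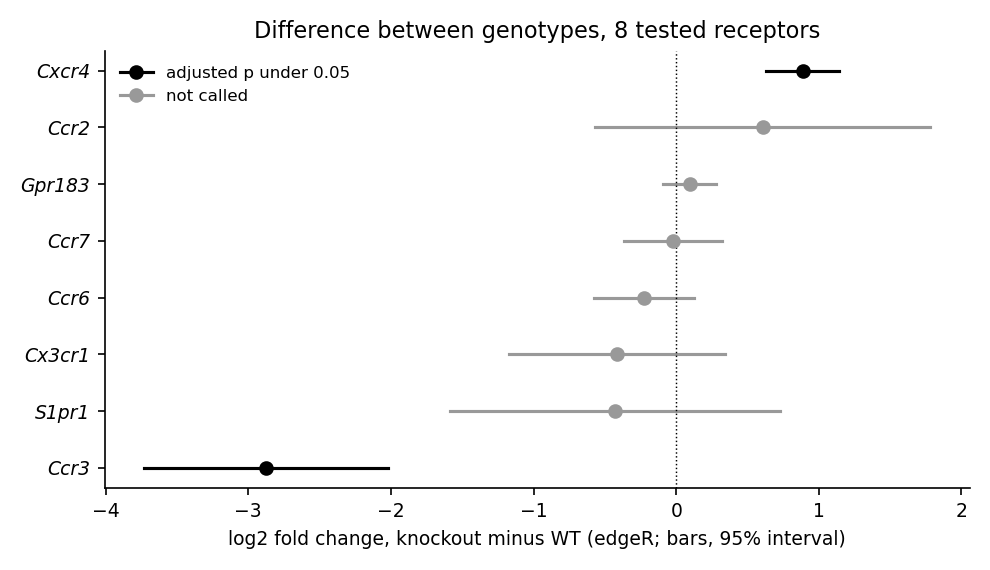
Log2 fold change, knockout minus WT, for the 8 receptors tested, with points for the edgeR estimate and bars for its 95% interval. The intervals of Ccr3 (-3.73 to -2.02) and Cxcr4 (0.63 to 1.14) lie apart from 0, and those of the other 6 include it.

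Among receptors that did not pass the test, Gpr183, the oxysterol receptor (ENSMUSG00000051212.8, mm10 chr14:121952551-121965195, minus strand), had the steadiest level. It was 188, 179 and 181 CPM in WT and 204, 189 and 192 CPM in the knockout. All knockout values were above all WT values, by a small margin. The means were 183 ± 4.33 and 195 ± 7.89 CPM (SD, n = 3 each), and the log2 fold change was 0.09 ± 0.09 (95% interval -0.10 to 0.28; edgeR adjusted p = 0.604). The interval spans 0.936-fold to 1.22-fold. Ranges that did not overlap between genotypes were found for 3 of the 8 tested receptors (Ccr3, Cxcr4 and Gpr183) and for 27.2% of all genes tested. Gpr183 lies within the span of Ubac2, which is on the opposite strand, and shares no exonic base with it.

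Ccr7, the receptor for T cell zone chemokines (ENSMUSG00000037944.8, mm10 chr11:99144196-99155077, minus strand), was 92.4, 64.5 and 78.7 CPM in WT and 92.3, 57.3 and 82.5 CPM in the knockout. The 2 groups covered nearly the same range. The log2 fold change was -0.02 ± 0.16 (95% interval -0.37 to 0.32; edgeR adjusted p = 0.958), and its sign changed with the analysis. Ccr6, the Ccl20 receptor (ENSMUSG00000040899.14, mm10 chr17:8236043-8257141, plus strand), was 40.6, 48.1 and 60.3 CPM in WT and 36.1, 47.2 and 43.7 CPM in the knockout. These ranges overlap, with a log2 fold change of -0.23 ± 0.17 (95% interval -0.58 to 0.12; edgeR adjusted p = 0.464).

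The other 4 receptors were low. Cx3cr1, the fractalkine receptor (ENSMUSG00000052336.7, mm10 chr9:119901616-120069879, minus strand), was 13.2, 8.64 and 8.49 CPM in WT and 10.8, 3.83 and 8.19 CPM in the knockout. The groups overlap, and the log2 fold change was -0.42 ± 0.36 (95% interval -1.17 to 0.34; edgeR adjusted p = 0.554). S1pr1, the egress receptor (ENSMUSG00000045092.8, mm10 chr3:115710433-115715072, minus strand), was 4.02, 4.03 and 7.20 CPM in WT and 7.45, 2.69 and 1.28 CPM in the knockout. The highest and the lowest of these 6 values were both in the knockout. Its log2 fold change was -0.43 ± 0.55 (95% interval -1.59 to 0.72; edgeR adjusted p = 0.715), and leaving out single libraries moved it between -1.36 (without knockout replicate 1) and -0.0080 (without knockout replicate 3).

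Ccr2, the monocyte-associated receptor (ENSMUSG00000049103.14, mm10 chr9:124101950-124113557, plus strand), was 5.08, 4.26 and 3.30 CPM in WT and 14.2, 1.97 and 3.33 CPM in the knockout. Knockout replicate 1, with 122 reads, stood above all other libraries, and the remaining 2 knockout libraries, with 19 and 39 reads, lay below or within the WT range. The log2 fold change was 0.61 ± 0.56 (95% interval -0.57 to 1.78; edgeR adjusted p = 0.583) and turned to -0.66 without that library. Ccr1 (ENSMUSG00000025804.5, mm10 chr9:123962124-123968692, minus strand) had 10, 12 and 2 reads in WT and 23, 8 and 11 in the knockout, 66 in all. Its levels of 0.236 to 1.38 CPM in WT and 0.827 to 2.68 CPM in the knockout overlap. At these depths a difference in Ccr1, Ccr2 or S1pr1 smaller than their wide spread was not detectable.

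Knockout replicate 1 was the highest of its group for Ccr1, Ccr2, Ccr3, Ccr7, Cx3cr1, Gpr183 and S1pr1, and the lowest for Ccr6 and Cxcr4. In that library the neutrophil markers summed to 26.4 CPM, against 1.14 and 5.88 CPM in the other 2 knockout libraries and 2.71 to 5.07 CPM in WT. Clec9a, a cDC1 marker, was 33.5 CPM there, 6.00 and 5.71 CPM in knockout replicates 2 and 3, and 18.8, 21.0 and 8.26 CPM in WT. Of the knockout libraries, knockout replicate 1 was also highest for the cDC1 markers Xcr1, Cd8a, Cadm1, Tlr3 and Itgae, but not for Batf3 and Wdfy4. Its Xcr1, Cd8a and Itgae values were above all WT libraries, and its Tlr3 value lay within the WT range. Its Cadm1 value, 8.85 CPM, was below the WT range of 10.4 to 18.3 CPM. Cadm1 was the 1 cDC1 marker called, lower in the knockout (log2 fold change -1.08, edgeR adjusted p = 0.0411). All 8 cDC1 markers, mostly Wdfy4, summed to 1918, 1894 and 1846 CPM in knockout replicates 1, 2 and 3, and to 1864 to 2089 CPM in WT. Monocyte markers summed to 1169 to 1297 CPM in WT libraries and 987 to 1062 CPM in knockout libraries. Of the 6 tested, 3 fell (Csf1r, Lyz2 and Plac8), the last 2 with calls lost as single libraries were left out. The largest part of each monocyte sum was Nr4a1, which was not called (log2 fold change -0.05). It ran from 610 to 762 CPM over the WT libraries and from 585 to 743 CPM over the knockout libraries. The part of these cell types in the receptor values was not tested.

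Levels of different receptors were compared per transcript length, as CPM per kilobase of exon (RPKM). In WT the order of mean levels was Gpr183 (63.3, from 62.1 to 65.0 over the libraries), Ccr7 (39.7 ± 7.07), Cxcr4 (39.3 ± 2.58), Ccr6 (21.4 ± 4.28) and Ccr3 (6.17 ± 1.62 RPKM; SD, n = 3). Cx3cr1, S1pr1, Ccr2 and Ccr1 followed, from 2.25 down to 0.303 RPKM. Neighbours in this order had ranges that did not overlap, except Ccr7 with Cxcr4 and Cx3cr1 with S1pr1. In the knockout, Cxcr4 (72.7 ± 9.60 RPKM) stood level with Gpr183 (67.6 ± 2.74 RPKM), with overlapping ranges, ahead of Ccr7 and Ccr6. Ccr3, at 0.860 ± 0.673 RPKM, had moved into the low group, where each neighbour's range overlapped the next. Its WT level exceeded that of 50.2% of 10362 tested genes with a known length, and its knockout level that of 11.3%. For Cxcr4 these shares were 91.1% and 96.3%.

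**Figure D2:**
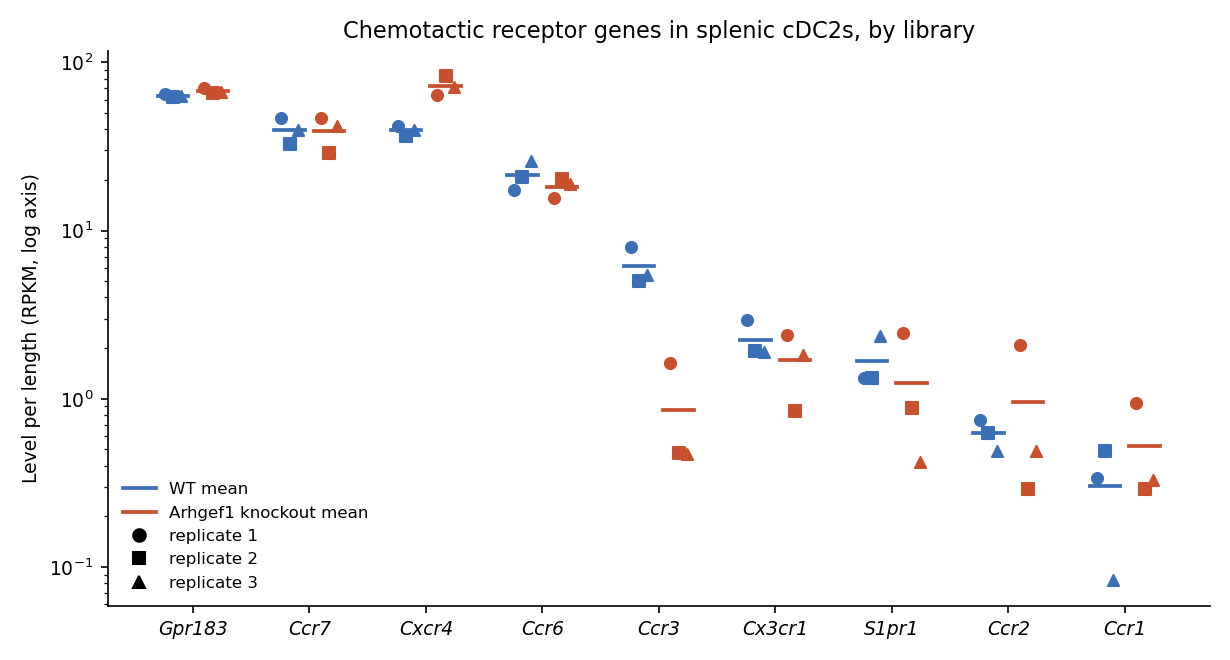
Level per transcript length (RPKM, log axis) of the 9 receptors in each of the 6 libraries, by genotype. Cxcr4 is higher in all 3 knockout libraries and Ccr3 lower, while Ccr7 and Ccr6 overlap between genotypes and Ccr2 and S1pr1 spread most within the knockout.

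The composition of the receptor transcripts shifted as well. Cxcr4 made up 22.7%, 22.7% and 22.2% of the summed RPKM of the 9 receptors in WT, against 30.9%, 41.4% and 35.4% in the knockout. Ccr3 made up 4.35%, 3.12% and 3.05% in WT and 0.794%, 0.237% and 0.232% in the knockout. Neither pair of ranges overlaps. Gpr183 held a mean share of 36.3% in WT and 33.3% in the knockout, and Ccr7 22.6% and 19.2%. The mean Ccr6 share was 12.3% in WT, and its knockout values were 7.54%, 10.1% and 9.30%. The Ccr6 ranges overlap, since the share in WT replicate 1 was below the 10.1% of knockout replicate 2. Because shares add up to a whole, a larger share of Cxcr4 lowers the others. Within each library, the RPKM ratio of Cxcr4 to Gpr183 was 0.642, 0.589 and 0.632 in WT and 0.903, 1.27 and 1.07 in the knockout, so Cxcr4 was below Gpr183 in all WT libraries and above it in 2 of the 3 knockout libraries. The ratio of Cxcr4 to Ccr7 ran from 0.893 to 1.12 over the WT libraries and from 1.37 to 2.86 over the knockout libraries.

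**Figure D3:**
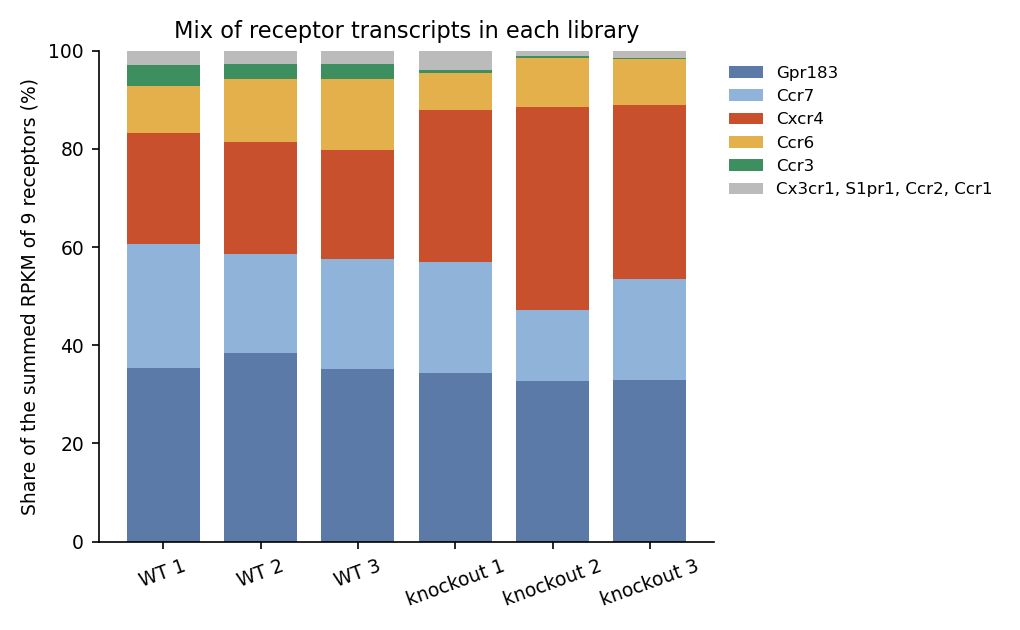
Share (%) of each receptor in the summed RPKM of the 9 receptors, 1 stacked bar per library. The Cxcr4 share is 22.2% to 22.7% in WT libraries and 30.9% to 41.4% in knockout libraries, and Gpr183 is the largest share in WT.

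Because 4 of the 9 receptors lie on chromosome 9 and Ccr1, Ccr3 and Ccr2 are neighbours, the genes within 500 kb of Ccr3 were examined. Of 32 annotated genes, 14 were in the table, 13 were tested, and Ccr3 was the one called. Of the other 12, edgeR called 0, 2 had an unadjusted p under 0.05 (Cxcr6 and Fyco1), DESeq2 called 1 and limma-voom 0. Cxcr6, the receptor for Cxcl16, was 16.8 to 17.2 CPM in the WT libraries and 9.78, 11.5 and 10.3 CPM in the knockout. Its groups do not overlap, with a log2 fold change of -0.69 ± 0.24 (edgeR adjusted p = 0.0766), and it passed the threshold only with DESeq2's Wald test (adjusted p = 0.0434). Fyco1, an adaptor for vesicle transport, had a log2 fold change of -0.25 ± 0.09 (edgeR adjusted p = 0.0952).

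**Figure D4:**
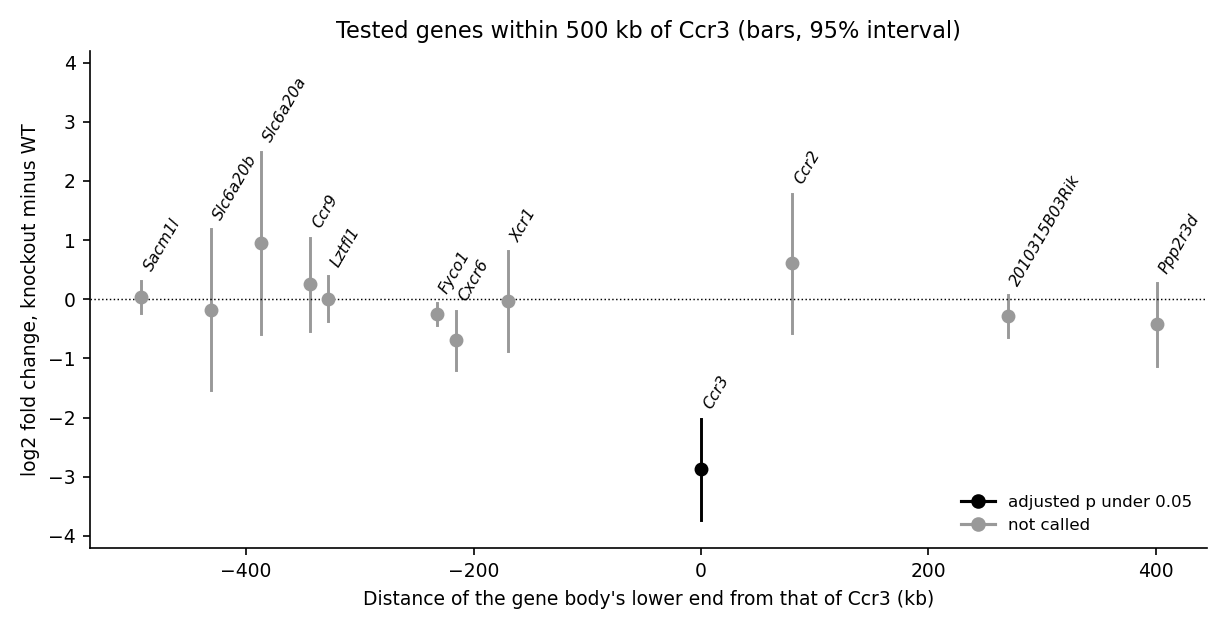
Log2 fold change, knockout minus WT (edgeR estimate and 95% interval), of 12 of the 13 tested genes within 500 kb of Ccr3, against distance from Ccr3 in kb. Ccr3 is called, at -2.87, and the next lowest value is that of Cxcr6, at -0.69.

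The genes whose pattern over the 6 libraries was closest to that of a changed receptor were found by the root mean square distance of log2 CPM, centred on each gene's mean, among 10075 genes. Closest to Ccr3 were Slc40a1, the iron exporter ferroportin (distance 0.331), Tmem26 (0.362) and Slco2b1, an organic anion transporter (0.429). Slc40a1 fell from 63.1 to 13.5 CPM, Tmem26 from 12.2 to 1.95 CPM and Slco2b1 from 6.51 to 1.41 CPM. Slc40a1 is also on the macrophage marker list above, and the call of Slco2b1 was lost without WT replicate 1 or 2 or knockout replicate 2 or 3. Without knockout replicate 1 the log2 fold changes of these 3 genes moved from -2.25, -2.67 and -2.24 to -2.90, -3.45 and -3.28. Closest to Cxcr4 were Smc2, a condensin subunit (distance 0.0468), Cdca8, a subunit of the chromosomal passenger complex (0.0501), and Tpx2, a spindle assembly factor (0.0539). Smc2 rose from 129 to 232 CPM, Cdca8 from 37.3 to 68.9 CPM and Tpx2 from 70.9 to 130 CPM. These distances describe 6 libraries of 2 genotypes, and any gene that differs between genotypes by a similar amount comes close.

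**Figure D5:**
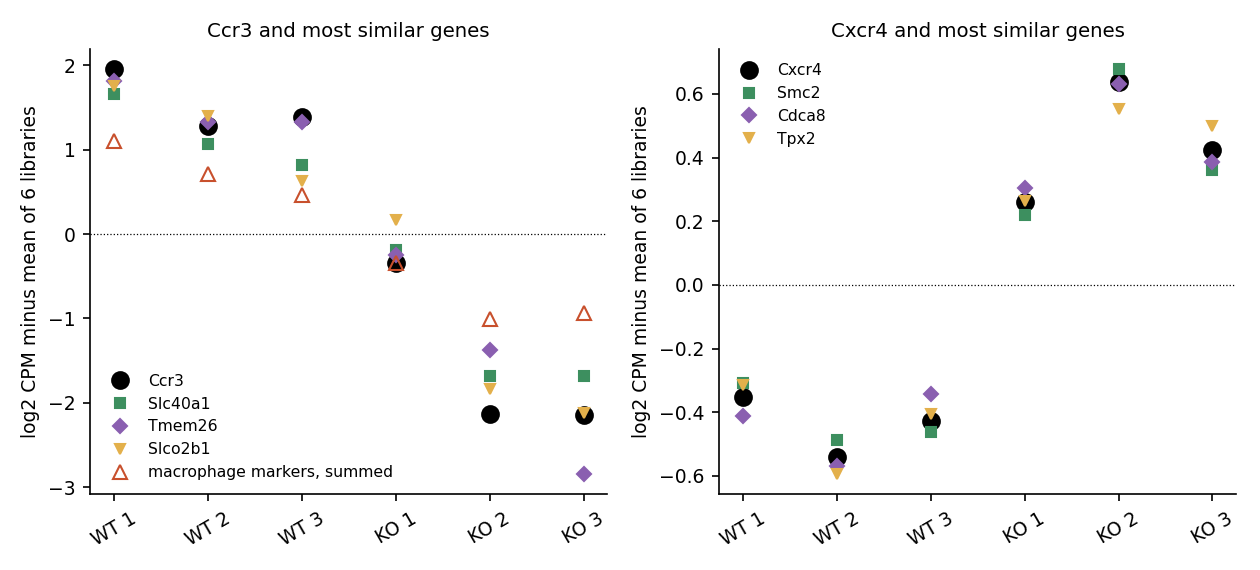
Log2 CPM minus its mean over the 6 libraries, for Ccr3 (left) and Cxcr4 (right) with the 3 genes of the smallest distance, and for the summed macrophage markers (open triangles). KO is the Arhgef1 knockout; the Ccr3 panel falls and the Cxcr4 panel rises from WT to KO in every gene shown.

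Of 78 tested genes in 4 lists of the same pathways, 9 passed the test, or 11.5%, near the 9.67% of all genes tested. Of 36 other chemotactic receptors listed, 22 were tested, 0 rose (0 at an unadjusted p under 0.05, and 0 by DESeq2 or limma-voom) and 2 fell, with a median log2 fold change of -0.31. Ptafr, the receptor for platelet-activating factor, was 51.3, 46.7 and 41.9 CPM in WT and 27.7, 27.2 and 27.9 CPM in the knockout, which gives a log2 fold change of -0.76 ± 0.15 (edgeR adjusted p = 0.00400). Gpr132, a receptor for lysophospholipids and oxidised fatty acids, had a log2 fold change of -0.30 ± 0.08 (edgeR adjusted p = 0.0217), a call lost when any 1 library other than knockout replicate 3 was left out. The median over the 8 tested members was -0.13, and over all genes tested it was 0.00. Ccr4 was at 0 in all libraries.

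Of 11 tested ligands and enzymes that make or degrade ligands, 0 rose (0 at an unadjusted p under 0.05, and 0 by DESeq2 or limma-voom) and 2 fell, with a median of -0.02. Sgpl1, the lyase that breaks down sphingosine-1-phosphate, was 147, 140 and 147 CPM in WT and 106, 96.9 and 99.4 CPM in the knockout, a log2 fold change of -0.52 ± 0.10 (edgeR adjusted p = 0.00283). Ccl5, a ligand of Ccr1 and Ccr3, was 84.7, 98.2 and 116 CPM in WT and 72.4, 46.8 and 55.9 CPM in the knockout, a log2 fold change of -0.77 ± 0.16 (edgeR adjusted p = 0.00384). For both genes the knockout range was below the WT range.

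Of 25 tested genes of signalling downstream of these receptors, 3 rose and 1 fell, with a median of 0.03. Gnai2, which encodes a Gi alpha subunit, had a log2 fold change of 0.33 (edgeR adjusted p = 0.0276), Gnb1, a G protein beta subunit, 0.35 (adjusted p = 0.0136), and Tiam1, an exchange factor for Rac, 0.74 (adjusted p = 0.0409). Plcb2, a phospholipase activated by G proteins, had -0.27 (edgeR adjusted p = 0.0463). Of 20 tested regulators of receptor activity 0 rose (1 at an unadjusted p under 0.05, and 0 by DESeq2 or limma-voom) and 1 fell, Rgs2, which shortens Gq signalling, with -0.26 (edgeR adjusted p = 0.0367). These 5 calls did not hold in every alternative, and leaving out WT replicate 2 ended all of them. The call of Gnb1 was also lost without WT replicate 1 or knockout replicate 3, that of Gnai2 without WT replicate 1 or knockout replicate 1 or 2, and that of Rgs2 without WT replicate 3 or knockout replicate 1 or 2 and with total counts. Those of Plcb2 and Tiam1 were lost whenever any library other than knockout replicate 3 was left out; that of Plcb2 was also lost with total counts and with no filter, and that of Tiam1 with limma-voom.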

How the data were processed

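RNA-seq counts of 3 WT and 3 Arhgef1 knockout libraries were used. The authors deposited a table of unnormalized whole-number read counts, with gene symbols as rows and libraries as columns. STAR, HTSeq, DESeq2 and the build mm10 are named in the submitters' processing notes. Not given in the sources used here are versions, annotation, strand setting and how the 14788 symbols were selected. Groups and replicate numbers came from the sample titles.

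Counts were tested in R 4.3.3 with edgeR 4.0.16: filterByExpr (minimum count 10), TMM scaling (factors 0.977 to 1.02), a quasi-likelihood fit of genotype on all 6 libraries and Benjamini-Hochberg adjustment over 11504 genes, called under 0.05. The common biological coefficient of variation (edgeR) was 0.189. An SE is the log2 fold change divided by the square root of F. CPM used TMM-scaled library sizes, and RPKM divided CPM by the union exon length in GENCODE vM21. The procedure was run on simulated counts, drawn with dispersions estimated from these data and with changes put only into genes above a set mean level. Such a run cannot show how lower genes fare and cannot separate lane from genotype. Counts of replicates differed beyond sampling noise, with a chi-square per degree of freedom of 8.16 to 13.9 between libraries of a group. That comparison cannot tell whether replicates came from separate animals.

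Promoters came from RefSeq, GRCm38.p6, in which 7 members had an entry. The members and gene lists were chosen with earlier results of these data known. Named genes were Arhgef1, the members, up to 4 called genes of each pathway list, the tested neighbours of Ccr3, the 3 genes closest to each called member, and markers that were called or at 0 beside a member they move with. A gene the rule takes is not reported here. Other genes were singled out after their values were seen. They are the uncalled eosinophil, basophil, mast cell, plasmacytoid and T cell markers, and the cDC1 markers (Clec9a among them). Nr4a1, Itgax, Zbtb46, Flt3 and Irf4 were singled out in the same way.

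Other settings tried were scaling in edgeR by the size factors of DESeq2, by upper quartiles or by total counts alone; testing all genes, or genes with 5 CPM in 3 or more libraries; a Wald test (DESeq2 1.42.0); limma-voom (limma 3.58.1); a replicate block; and dropping 1 library at a time.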

Additional observations from a re-analysis of the deposited data

How the results depend on the processing

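Across 14 alternatives, Ccr3 was called lower and Cxcr4 higher each time, and no other receptor was called. The count of all genes called was 1113 and ranged from 598 (without WT replicate 1) to 1072 (without knockout replicate 1) when a library was left out; it was 625 without WT replicate 2, 734 without WT replicate 3, 630 without knockout replicate 2 and 800 without knockout replicate 3. The other settings gave 945 to 1381 genes, the most with DESeq2's Wald test, which also called 1 neighbour of Ccr3 (Cxcr6) where edgeR called 0; 0 neighbours were called in the other alternatives. With the replicate block, 945 genes were called, among them 1 receptor higher and 1 lower; correlations of same-numbered libraries were 0.0554, -0.0516 and -0.0524 over 5134 genes, so the numbers were not taken to pair the samples, and not every library correlated best with its own number. The block ended the calls of Gnai2, Plcb2, Plac8 and Tiam1, and DESeq2 that of Lyz2 (adjusted p = 0.173). Without single libraries, calls were lost for Lyz2 (WT replicate 1, knockout replicates 2 and 3), Plac8 (WT replicates 1 and 3, knockout replicates 1 and 3), Sirpa (WT replicate 1) and Clec4a4 (WT replicates 2 and 3, knockout replicates 1 and 3). Ccr2 ranged from -0.66 to 1.03 with single libraries left out and reversed without knockout replicate 1 (-0.66), and it was 0.03 with limma-voom. Ccr7 reversed with total counts (0.012), without WT replicate 1 (0.11) and without knockout replicate 2 (0.15), and ranged from -0.16 to 0.15. The cause was not tested. Ccr2 and S1pr1 gave no value under the stricter filter, and Ccr1, with 66 reads, was tested only with no filter (log2 fold change 0.76, adjusted p = 0.718). Scaling moved the median of all genes by at most 0.03.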
